A study of Rattus norvegicus with 24 samples.

Results

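MHC class II molecules carry peptides of engulfed proteins to the cell surface, where CD4+ T cells read them. The rat carries the classical class II pairs RT1-D and RT1-B, each made of an alpha and a beta chain, while the invariant chain (Cd74) guards the empty groove and RT1-DM exchanges the peptides inside the cell. In the lung, class II genes are active in dendritic cells, B cells and macrophages, and also in alveolar type II epithelial cells. Their transcription needs Ciita, a coactivator that docks on the RFX and NF-Y factors bound at the X and Y boxes of class II promoters.

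The genes described are the 8 rat symbols Cd74, RT1-Ba, RT1-Bb, RT1-Da, RT1-Db1, RT1-DMa, RT1-DMb and Ciita, which were chosen by symbol and hold 10 probes out of an array that names 15443 gene symbols. RNA of whole lung was hybridised to one-colour Agilent arrays, 1 array for each of 24 Fischer-344 rats, about 7 to 8 weeks old by the labels. The control group breathed filtered clean air, and the other groups breathed hexanal, an aldehyde of lipid oxidation, at targets named 600, 1000 and 1500 ppm in the sample titles, for 4 hours a day on 5 days a week in nose-only chambers. Each group holds 6 rats, 3 males and 3 females. The labels give 5 weeks and mg/m3 where the study's methods give 4 weeks and ppm. No transgene or gene deletion is named for any group, and no cell type was sorted.

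A level is the log2 signal of a probe minus the 75th percentile of its array, so that 0 is the signal at that percentile and a difference of 0.585 is a fold of 1.5. Levels of different probes are not comparable, because probes bind with different strength. In whole lung, fewer cells of a type and less RNA per cell cannot be told apart. The 75th percentile of the raw signal ran from 1701 to 3133 over the 24 arrays, between 70.7% and 81.8% of probes were well above background, and no probe was saturated. The arrays sat on 6 slides of 4, each with 1 sex and 2 neighbouring dose groups. As markers of lung, the surfactant gene Sftpc of type II cells and the club cell gene Scgb1a1 stood well above background in all 24 rats.

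Of the 10 probes, 8 stood well above background in all 24 rats, and 7 of the 8 genes passed the filter on dim probes. The exception was RT1-Ba, the alpha chain of RT1-B, whose 1 probe was not well above background in any of the 24 rats. No level or fold change is therefore given for RT1-Ba. The partner chain RT1-Bb has a pair of probes that gave different pictures of the same rats.

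The promoters of the 4 classical chains are shown for their X and Y boxes, and any part of these boxes in the members' levels was not tested. Each line holds the 200 bases before the annotated start, 5′ to 3′, from RefSeq on the build GRCr8, and the capitals mark matches to the X box core AGNNACNGA or the Y box GATTGG on either strand.
RT1-Da, chr20:4515215-4515414, forward strand: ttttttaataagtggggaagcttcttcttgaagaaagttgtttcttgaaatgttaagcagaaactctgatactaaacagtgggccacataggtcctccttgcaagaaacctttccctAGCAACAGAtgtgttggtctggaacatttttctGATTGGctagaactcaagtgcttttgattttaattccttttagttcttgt
RT1-Db1, chr20:4560163-4560362, reverse strand: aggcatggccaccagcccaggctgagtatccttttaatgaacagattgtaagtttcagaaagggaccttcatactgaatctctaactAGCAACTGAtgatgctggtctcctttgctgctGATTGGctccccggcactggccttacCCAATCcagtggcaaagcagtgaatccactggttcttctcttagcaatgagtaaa
RT1-Ba, chr20:4576857-4577056, forward strand: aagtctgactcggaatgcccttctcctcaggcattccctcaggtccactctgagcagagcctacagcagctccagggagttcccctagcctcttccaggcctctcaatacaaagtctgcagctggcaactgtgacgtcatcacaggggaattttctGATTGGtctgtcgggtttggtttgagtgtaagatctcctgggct
RT1-Bb, chr20:4604119-4604318, reverse strand: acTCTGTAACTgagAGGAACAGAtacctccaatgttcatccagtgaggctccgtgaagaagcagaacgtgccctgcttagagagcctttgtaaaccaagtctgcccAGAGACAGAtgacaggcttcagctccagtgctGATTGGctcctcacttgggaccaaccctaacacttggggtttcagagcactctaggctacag
These 4 windows lie in 1 stretch of chromosome 20. In RT1-Da the X box core begins 83 bases before the start and the Y box 50 bases before it, in RT1-Db1 they begin 113 and 81 bases before it, and in RT1-Bb 94 and 62 bases before it. RT1-Db1 holds another Y box on the opposite strand, and RT1-Bb holds 2 further X box cores far upstream. In RT1-Ba the Y box begins 44 bases before the start, and the only match to the X box core lies past the start, outside the bases shown. Over all 33469 windows of 300 bases, 18.1% held the X box core, 14.8% the Y box and 2.79% both, and 9.8% held the S box core GACCNTT. The full window of each of these 4 genes held both boxes and no S box core. The window of RT1-DMa held a Y box alone, and that of Cd74 held 2 S box cores and neither of the others. A match of letters is a description and not a measured binding site, and no marked sites overlap. RT1-DMb and Ciita were not matched to a window.

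Before any comparison of doses, 2 rats stood apart on the probes of RT1-Bb and RT1-Db1. On the second RT1-Bb probe (A_44_P552452), control rat 1 had a level of 3.42 and 600 ppm rat 7 a level of 3.31, whereas 20 rats lay between -9.42 and -8.15 and were not well above background. In raw signal that was 32850 and 26360 against 3.82 to 9.20. Rats 26 (600 ppm) and 31 (1000 ppm) lay in between, at -4.29 and -6.22, and were the only others well above background, so the probe was lit in 4 of 24 rats.

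The same 2 rats were at the edge of the range on 3 further probes. On the first RT1-Bb probe (A_64_P043911), which was well above background in every rat, rat 1 had 2.74 and rat 7 had 2.62, below all 22 others, which ran from 2.94 to 3.31. On the second RT1-Db1 probe (A_64_P134927) they had 3.8 and 3.45, above all 22 others, which ran from 1.75 to 2.60. On the first RT1-Db1 probe (A_64_P130578) they had 3.30 and 2.94, again above the others at 2.41 to 2.82. For Cd74, RT1-Da, RT1-DMa, RT1-DMb and Ciita at least 1 of the 2 rats lay inside the range of the others. Rats 26 and 31 were inside the range of the other rats on the first RT1-Bb probe, at 3.06 and 3.31.

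**Figure D1:**
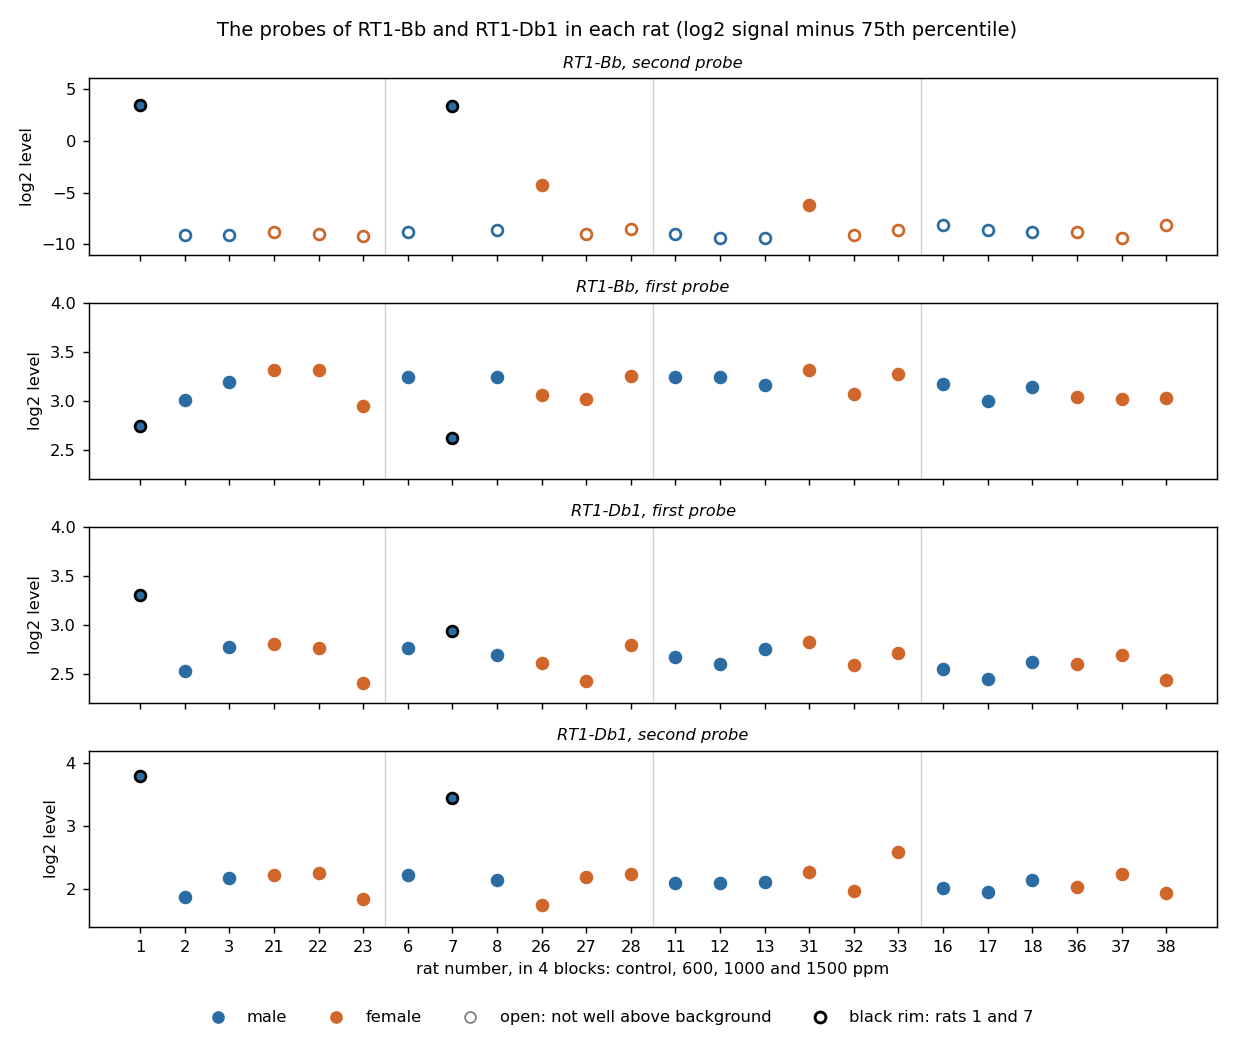
Levels (log2 signal minus the 75th percentile of the array, vertical axis) of the probes of RT1-Bb and RT1-Db1 in each of 24 rats (horizontal axis, in 4 dose blocks), with males in blue, females in orange, open circles for signals not well above background and a black rim for rats 1 and 7. Rats 1 and 7 are the highest on the second RT1-Bb probe (3.42 and 3.31) and on both RT1-Db1 probes, and the lowest on the first RT1-Bb probe (2.74 and 2.62).

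Across 22163 probes compared, 3 separated both rats from the other 22 by more than 2-fold. One was the second RT1-Bb probe, with a gap of 7.60 log2 units, and the others had no gene symbol and a gap of at most 2.54. Rats 1 and 7 were both male, came from different dose groups and sat on different slides. Their genotype was not measured in these files, and why they differ was not tested. All comparisons are therefore given with all 24 rats and, where it changes the picture, without these 2.

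No member passed the call at any dose. A call took a fold of at least 1.5 and an unadjusted p under 0.05 in limma over 21255 genes or unnamed probes. By that rule 0 of 7 members were called at 600 ppm, where 0.616% of all genes were, 0 of 7 at 1000 ppm, where 1.64% were, and 0 of 7 at 1500 ppm, where 1.22% were. The dose and control groups of 6 rats overlapped for all 7 members at all 3 doses, while 0.278%, 0.456% and 0.48% of all genes had groups that did not overlap. The 95% interval of the difference stayed within 1.5-fold in either direction for 20 of 21 pairs of member and dose, the exception being Ciita at 1500 ppm. The median difference over the 7 members was -0.04, -0.02 and -0.14 at the rising doses, against -0.001, 0.005 and 0.013 over all genes.

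**Figure D2:**
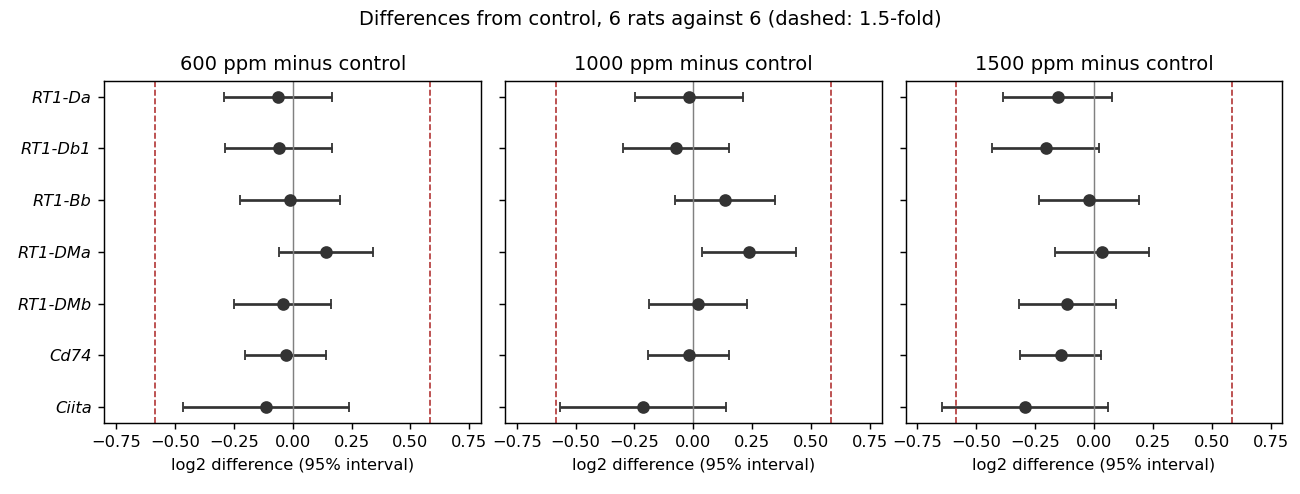
Log2 difference of each dose from control (horizontal axis, 6 rats against 6, points with 95% intervals from limma) for the 7 members that passed the filter, with dashed lines at a fold of 1.5. The points run from -0.29 (Ciita at 1500 ppm) to 0.24 (RT1-DMa at 1000 ppm), and only the interval of Ciita at 1500 ppm reaches past a dashed line.

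RT1-Da, the alpha chain of RT1-D, ran from 2.78 over a median of 3.21 to 3.31 in control rats and from 2.75 over 2.94 to 3.12 at 1500 ppm. The groups overlapped over most of their range. The difference was -0.15 ± 0.11 (SE, 6 rats against 6; limma, unadjusted p = 0.177, adjusted p = 0.818). At 600 and 1000 ppm it was -0.06 ± 0.11 and -0.02 ± 0.11. With normexp background correction, which refits the background of each array, the difference at 1500 ppm was -0.01 ± 0.12.

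RT1-Db1, the beta chain of RT1-D, ran from 2.41 over 2.77 to 3.30 in control rats and from 2.44 over 2.58 to 2.69 at 1500 ppm, with 2.43 to 2.94 at 600 ppm and 2.58 to 2.82 at 1000 ppm. The control rats spread the widest (SD 0.31, n = 6) and the rats at 1500 ppm lay within the control range. The difference at 1500 ppm was -0.21 ± 0.11 (limma, adjusted p = 0.746). Without rats 1 and 7, of which rat 1 was the highest control rat, it was -0.10 ± 0.08.

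RT1-Bb on its first probe ran from 2.74 over 3.10 to 3.31 in control rats, from 2.62 over 3.15 to 3.25 at 600 ppm, from 3.07 over 3.24 to 3.31 at 1000 ppm and from 2.99 over 3.03 to 3.17 at 1500 ppm. Its SD was 0.23 and 0.24 in the groups that hold rats 1 and 7, and 0.09 and 0.07 in the others (n = 6 each). The differences from control were -0.01 ± 0.10, 0.13 ± 0.10 and -0.02 ± 0.10 (SE). Without the 2 rats the differences at 1000 and 1500 ppm were 0.06 ± 0.08 and -0.09 ± 0.08, and that between 1500 and 1000 ppm was -0.15 ± 0.07 (limma, unadjusted p = 0.0451, adjusted p = 0.899).

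RT1-DMa, the alpha chain of the peptide editor RT1-DM, gave the highest difference of any member. Its level ran from -0.23 over 0.22 to 0.40 in control rats, from 0.10 over 0.27 to 0.47 at 600 ppm, from 0.25 over 0.39 to 0.49 at 1000 ppm and from 0.01 over 0.24 to 0.29 at 1500 ppm. At 1000 ppm 2 rats lay above every control rat. The difference there was 0.24 ± 0.10, a fold of 1.18 (95% interval 0.04 to 0.44; limma, unadjusted p = 0.0223, adjusted p = 0.515), which did not reach 1.5-fold. At an unadjusted p under 0.05 alone 1 of 7 members passed at 1000 ppm, where 8.99% of all genes did, and none at 600 or 1500 ppm, where 4.33% and 6.97% did. With slide as a block the value at 1000 ppm was 0.15 ± 0.19. Within the slides that hold 2 rats each of 1000 and 600 ppm the difference was 0.07 in males and 0.04 in females.

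RT1-DMb, the beta chain of RT1-DM, ran from 0.58 over 0.85 to 1.09 in control rats and from 0.53 over 0.77 to 0.95 at 1500 ppm, a difference of -0.11 ± 0.10 (adjusted p = 0.852). The groups overlapped almost throughout. Cd74, the invariant chain, ran from 4.95 over 5.22 to 5.24 in control rats and from 4.91 over 5.01 to 5.07 at 1500 ppm. There 2 of 6 rats lay below every control rat, and the difference was -0.14 ± 0.08 (limma, adjusted p = 0.765). Its exact permutation test, two-sided, gave p = 0.0541, the smallest of the 21 exact tests run for 7 members at 3 doses, where 6 rats against 6 can reach 0.00216. After adjustment over those 21 tests it was 0.613. The direction at 1500 ppm is not settled, since the difference was 0.01 ± 0.09 with normexp background correction and -0.04 ± 0.21 with slide as a fixed block. At 600 and 1000 ppm Cd74 differed from control by -0.03 ± 0.08 and -0.02 ± 0.08.

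**Figure D3:**
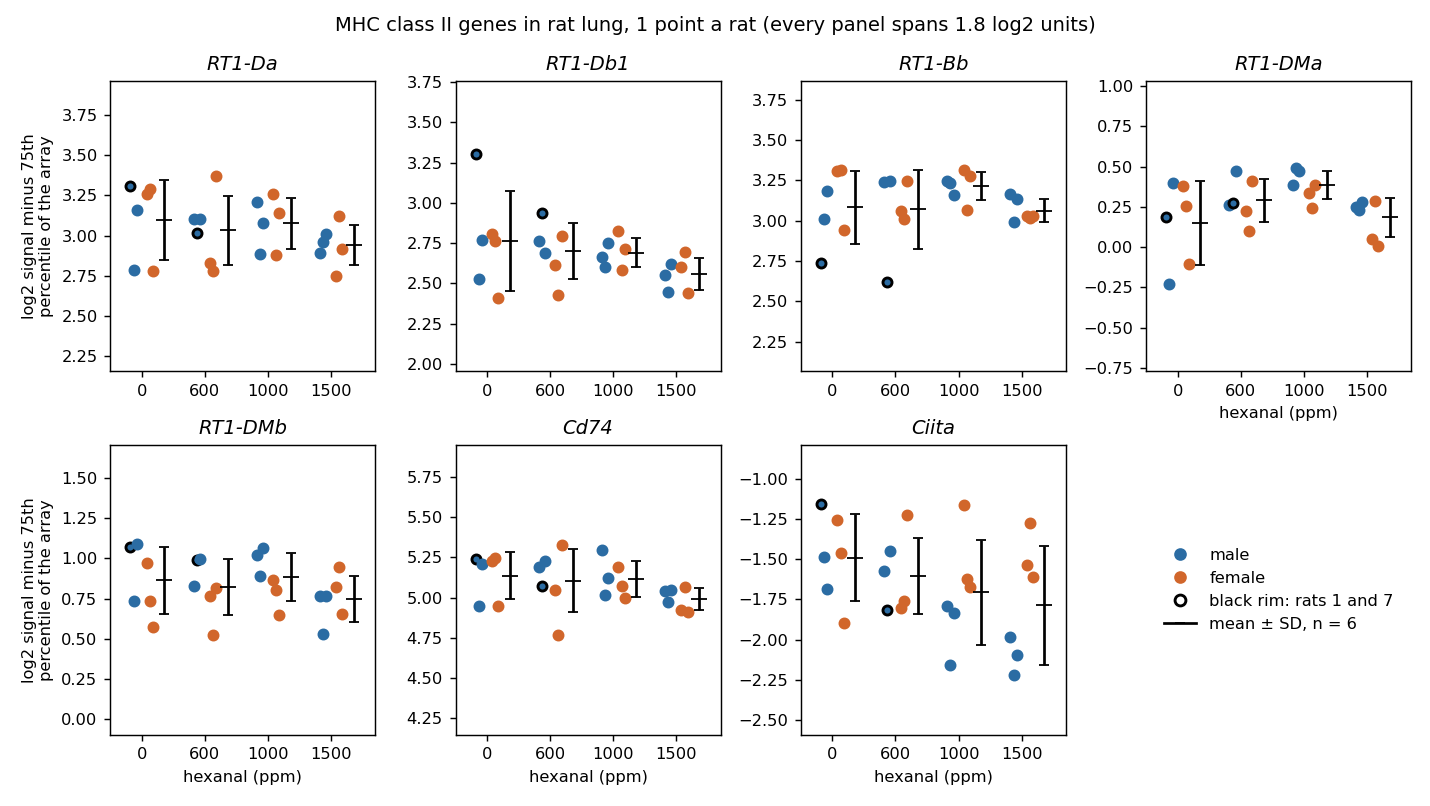
Level of each member that passed the filter (log2 signal minus the 75th percentile of the array, vertical axis) against the hexanal dose in ppm, 1 point a rat, with males in blue, females in orange, a black rim for rats 1 and 7 and bars for mean ± SD of 6 rats. Every panel spans the same 1.8 log2 units, and the clearest split by sex is that of Ciita, whose 3 males at 1500 ppm lie between -2.22 and -1.98 and whose 3 females lie between -1.61 and -1.27.

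Ciita, the master coactivator of class II transcription, varied more from rat to rat than the other members at 1000 and 1500 ppm (SD 0.33 and 0.37, n = 6 each). Its level ran from -1.90 over -1.48 to -1.16 in control rats, from -1.82 over -1.67 to -1.23 at 600 ppm, from -2.16 over -1.73 to -1.16 at 1000 ppm and from -2.22 over -1.80 to -1.27 at 1500 ppm. At 1500 ppm 3 of 6 rats lay below every control rat, and all 3 were male. The difference from control there was -0.29 ± 0.17 over both sexes (95% interval -0.65 to 0.06; limma, adjusted p = 0.760). Its size depended on the setting. With array weights it was -0.48 ± 0.17 (limma, unadjusted p = 0.00847, adjusted p = 0.362), still under 1.5-fold, and without rats 1 and 7 it was -0.23 ± 0.18.

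The levels of Ciita are therefore given by sex. Control males had levels of -1.16, -1.49 and -1.69, the males at 1000 ppm -1.79, -2.16 and -1.83, and those at 1500 ppm -1.98, -2.22 and -2.09. Every male at the upper 2 doses thus lay below every control male, with the same control males used for both doses. How many of all genes split the males in this way was not counted, so whether the split is particular to Ciita is not known. Control females had -1.26, -1.46 and -1.90 and the females at 1500 ppm -1.54, -1.27 and -1.61, within the control range.

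Among males Ciita was lower at 1500 ppm by -0.66 ± 0.19, a fold of 1.58 (3 rats against 3; limma, unadjusted p = 0.00325, adjusted p = 0.0755). It was the 1 of 7 members called in males at that dose, where 4.82% of all genes were called. The SE and p of each contrast within 1 sex used a spread pooled over both sexes and every dose group. All 3 control males sat on slide 1 and all 3 males at 1500 ppm on slide 3. The difference is therefore also 1 slide against another, which this p does not take into account. With 3 rats against 3 an exact test cannot go below 0.10. In females the difference was 0.07 ± 0.19, with 0 of 7 members called and 5.62% of all genes. The difference between the sexes, tested as an interaction, was 0.72 ± 0.27 (95% interval 0.15 to 1.30; limma, unadjusted p = 0.0167, adjusted p = 0.139) and did not pass. In males at 1500 ppm RT1-Db1 stood at -0.33 ± 0.16 and RT1-DMb at -0.27 ± 0.12, under 1.5-fold (limma, unadjusted p = 0.0482 and 0.0364, adjusted p = 0.292 and 0.259). The share of all genes at an unadjusted p under 0.05 in males was not counted. For RT1-Db1 rat 1 was the highest control male, at 3.303 against 2.529 and 2.769. The males at 1500 ppm ran from 2.445 to 2.621. For Ciita in males the call rested on rat 1, since without it the difference was -0.51 ± 0.21 and under 1.5-fold. With slide as a block the difference in males was -0.74 ± 0.48 (unadjusted p = 0.145) and was not called.

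Slides held neighbouring doses of 1 sex, so the steps can be followed inside them. In males Ciita at 600 ppm (1 rat) was -0.13 from control (3 rats) on slide 1, 1000 ppm was -0.34 from 600 ppm on slide 2 (2 rats each), and 1500 ppm (3 rats) was -0.27 from 1000 ppm (1 rat) on slide 3. In females the same steps were -0.26, 0.10 and 0.20. The sign was negative on all 3 male slides and on 1 of 3 female slides, with 1 to 3 rats a side and no test.

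At the other doses by sex no member was called. The share of all genes called was 1.21% at 600 ppm and 2.2% at 1000 ppm in males, and 1.77% and 4.7% in females. Ciita in males at 1000 ppm stood at -0.48 ± 0.19 (unadjusted p = 0.0226, adjusted p = 0.336) and RT1-DMa, in the other direction, at 0.33 ± 0.14 (unadjusted p = 0.0295, adjusted p = 0.369). The test of the difference between the sexes called 0 of 7 members at each dose, with 0% of all genes called at 600 and 1000 ppm and 5.02% at 1500 ppm (adjusted p under 0.05).

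Between the doses 0 of 7 members were called in any pair, with 0.63% of all genes called for 1000 against 600 ppm, 1.16% for 1500 against 600 ppm and 0.522% for 1500 against 1000 ppm. All 7 members had a lower mean at 1500 ppm than at 600 ppm, by 0.01 to 0.18, and than at 1000 ppm, by 0.08 to 0.20. Both sets of differences use the same 6 rats at 1500 ppm, and most members vary together from rat to rat, so the 7 are not separate observations. The median difference over all genes was 0.017 for 1500 against 600 ppm and 0.005 for 1500 against 1000 ppm. RT1-DMa at 1500 against 1000 ppm gave -0.20 ± 0.10 (unadjusted p = 0.048, adjusted p = 0.899), 1 of 7 members at an unadjusted p under 0.05, where 4.98% of all genes passed. A straight slope on dose called 0 of 7 members, against 0.0141% of all genes, and the slopes ran from -0.20 ± 0.10 per 1000 ppm for Ciita to 0.04 ± 0.07 for RT1-DMa.

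Between the sexes over all doses 0 of 7 members passed the 1.5-fold call, with 3.93% of all genes called. Ciita was 0.25 ± 0.11 higher in females (mean -1.52 against -1.77, 12 rats each; unadjusted p = 0.0362, adjusted p = 0.106) and RT1-DMb was 0.14 lower in females (0.76 against 0.90; unadjusted p = 0.0496, adjusted p = 0.132). These 2 of 7 had an unadjusted p under 0.05, where 37.6% of all genes did. No slide carried both sexes, and each sex had 3 slides. With slide as a random block Ciita was 0.25 ± 0.13 higher in females (limma, unadjusted p = 0.0735, adjusted p = 0.219) and RT1-DMb gave an unadjusted p of 0.106, so that neither stayed under 0.05.

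From rat to rat most members varied together. After the mean of each dose group was taken off, Pearson's r over 24 rats was above 0 for 19 of 21 pairs of members, with a median of 0.49, and these rats share slides and an array scale. Cd74 and RT1-Da were the closest pair (r = 0.853), and RT1-DMa followed both (0.706 and 0.702). The chains RT1-Bb and RT1-Db1 went against each other (r = -0.209). Without rats 1 and 7 that value was 0.783, all 21 pairs were above 0 and the median was 0.683. Ciita was the least tied to the rest without these rats, from 0.053 with RT1-DMa to 0.575 with RT1-Db1.

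**Figure D4:**
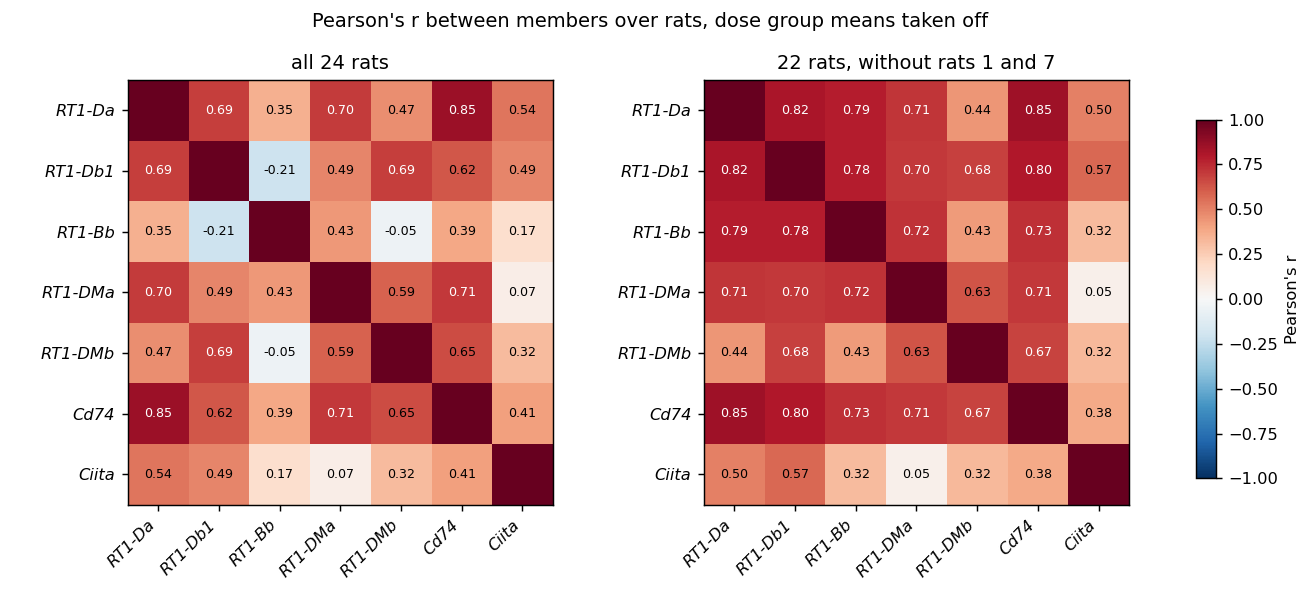
Pearson's r between each pair of members over rats, with the mean of each dose group taken off, for all 24 rats (left) and for 22 rats without rats 1 and 7 (right); the colour runs from -1 in blue to 1 in red. RT1-Bb with RT1-Db1 changes from -0.21 to 0.78, and Cd74 with RT1-Da stays at 0.85.

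The mean level of the 7 members was 1.94 ± 0.19 (SD) in control rats, 1.92 ± 0.15 at 600 ppm, 1.95 ± 0.09 at 1000 ppm and 1.81 ± 0.09 at 1500 ppm (n = 6 each). Outside the members, 12492 gene symbols were compared with this mean over the 24 rats, with group means taken off. Their median r was -0.031. The highest values of so wide a search are high by selection, and no test of them was made. The 10 genes most like this mean had r between 0.666 and 0.725. They were Glycam1, a ligand of L-selectin, Inhba, a subunit of activin, Ubd, a ubiquitin-like modifier, Cd83, a marker of mature dendritic cells, Def6, Lbhd2, the lymphoid chemokines Ccl19 and Cxcl13, Suclg1, an enzyme of the citric acid cycle, and Vcan, a matrix proteoglycan. Glycam1 had r = 0.725 and differed from control by 0.78, 1.75 and -0.11 at the rising doses. None of the 10 was called at any dose, where 0.616%, 1.64% and 1.22% of all genes were at the rising doses.

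The other class II genes measured were RT1-DOa and RT1-DOb, the chains that hold RT1-DM in check, and RT1-Ha. RT1-DOa lay between -4.71 and -3.61 in control rats and between -4.50 and -3.55 at 1500 ppm (difference -0.17 ± 0.19), and RT1-DOb differed by -0.15 ± 0.20. At 600 ppm the differences were larger, -0.29 ± 0.19 for RT1-DOa and -0.24 ± 0.20 for RT1-DOb (limma, unadjusted p = 0.149 and 0.244). At 1000 ppm they were 0.02 ± 0.19 and -0.11 ± 0.20. The probe of RT1-Ha was well above background in 5 of 6 control rats and in 1 of 6 rats at 600 ppm. It met the call as lower at 600 ppm, where 0.616% of all genes were called, and was the 1 of these 3 genes to do so at any dose. Its level there lay mostly in the background, and no fold is given.

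The machinery around class II was described by lists. Of 12 genes of class II loading and turnover, 12 class II transcription factors, 8 genes of interferon gamma signalling, 10 interferon gamma induced genes, 18 genes of class I presentation and 4 costimulatory and T cell inhibitory ligands that passed the filter, 0 were called in either direction at any dose. Of all genes 0.616%, 1.64% and 1.22% were called at the rising doses, so 0 in lists of this size is near that share. The protease Ctss, which trims the invariant chain, differed from control by 0.07 ± 0.10, -0.11 ± 0.10 and -0.18 ± 0.10 at the rising doses. Its rats at 1500 ppm lay between 1.70 and 2.03 against 1.85 to 2.32 in control rats. Ifi30, a thiol reductase of antigen processing, differed by at most 0.08, and Lgmn, an asparaginyl endopeptidase, by -0.19 ± 0.11 at 1500 ppm.

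Of the factors that bind the X and Y boxes, Rfxap differed from control by -0.10 to -0.09, Rfxank by -0.06 to -0.00, Nfya by 0.05 to 0.17, Nfyb by -0.02 to 0.07 and Nfyc by -0.10 to 0.01 over the 3 doses. Rfx5 had a wide error (0.51 ± 0.43 at 1000 ppm). Irf1, an interferon-inducible factor, differed by 0.09 to 0.13. Ifng itself was not well above background on any array. The median difference of the transcription factor list was -0.00, 0.01 and -0.01. The class I light chain B2m differed by at most 0.05 in either direction, and the class I list had a median of -0.16, -0.06 and -0.08. The interferon gamma induced genes had a median of -0.26, -0.11 and -0.05, with 10 of 10 lower than in control rats at 600 ppm. Of these genes 2 had an unadjusted p under 0.05 there (limma), where 4.33% of all genes did.

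Markers of the cells that carry class II were read from the same arrays. Of 9 dendritic cell markers, 10 B cell markers, 16 macrophage markers, 12 T cell markers, 9 type II epithelial markers and 9 other lung cell markers, 0 were called at any dose. That too is near the share of all genes called, which was 0.616%, 1.64% and 1.22% at the rising doses. Cd79a, Ms4a1 and Itgax were not matched to a probe. The summed level of the macrophage markers ran from 7.23 to 7.84 in control rats and from 7.21 to 7.74 at 1500 ppm, that of the B cell markers from 2.57 to 3.07 and from 2.15 to 3.23, that of the dendritic cell markers from 3.65 to 3.94 and from 3.64 to 3.91, and that of the type II markers from 9.03 to 9.26 and from 8.94 to 9.27. The ranges of all 4 lists overlapped, and that of the B cell markers was wider at 1500 ppm than in control rats. Of the type II markers 8 of 9 were lower at 1500 ppm, with a median of -0.10 against 0.013 over all genes. Of these markers 2 had an unadjusted p under 0.05 (limma), where 6.97% of all genes did. At 600 ppm the median of the B cell markers was -0.36 and that of the T cell markers -0.25, with 9 of 10 and 12 of 12 lower than in control rats, and their part in the members' values was not tested.

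Of the heart muscle markers 4 of 8 were called higher at 1000 ppm (Actc1, Tnnt2, Tnni3 and Sln), where 1.64% of all genes were called. Their summed level ran from 3.09 to 7.00 there against 1.78 to 5.20 in control rats. Of the mast cell and neutrophil markers 1 of 8 was called at that dose, the neutrophil gene S100a8 (0.71 ± 0.34). The adjusted p of these called genes ran from 0.515 to 0.548 (limma). The part of these genes in the value of RT1-DMa at 1000 ppm was not tested.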

How the data were processed

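Lung RNA of 24 rats was measured on one-colour Agilent arrays (design build rn4). The authors' deposited intensities are processed signals of Agilent Feature Extraction 11.5.1.1, background-subtracted and not scaled between arrays, and the series' value table repeats these intensities. Outlier spots were left out and 42877 spots averaged into 30367 probes, of which 18355 were named by accession through a GRCr8 gene table. Signals were log2-transformed, each array's 75th percentile was subtracted, and limma 3.58.1 was run (lmFit, eBayes; R 4.3.3). A probe was kept where 1 group had 5 or more of its 6 arrays flagged well above background, and a gene was read from its kept probe of highest mean.

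Groups came from the sample titles. A call took a 1.5-fold change and an unadjusted p under 0.05, as in the methods. Slopes, and differences of a dose effect between the sexes, took a Benjamini-Hochberg adjusted p under 0.05. Females against males took the 1.5-fold call. Contrasts in males alone or females alone used a spread pooled over both sexes and every dose group. The number of arrays limits the precision, and nothing beyond separate rat numbers describes the replicates. The fit was tested on simulated data. Genes named were the members, genes of the lists called at a dose, and a set fixed by name, of which 1 gene is not reported here. Members and lists were chosen with earlier results of these data known.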

Additional observations from a re-analysis of the deposited data

Results flagged for a closer look

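In a check of each member probe in each group of 6 rats, a rat was marked when its gap to the nearest other rat took up more of the group's range than Dixon's 95% critical value for 6 samples, which chance alone would do in about 1 in 20 groups. Of 40 groups 5 were marked, all on RT1-Bb and RT1-Db1. On the second RT1-Bb probe they were control rat 1, at 3.42, and rat 31 at 1000 ppm, at -6.22. On the first RT1-Bb probe it was rat 7 at 600 ppm, at 2.62, the lowest of its group. On the second RT1-Db1 probe they were control rat 1, at 3.8, and rat 7, at 3.45. Of these 5 marks, 4 are rats 1 and 7.

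On the first probe of RT1-Bb all 3 males at 1500 ppm lay above the mean of the control males. All 3 females at that dose lay below the mean of the control females. This rule was applied to every member and dose, and how many of all genes met it was not counted. The difference of the effects, females minus males, was -0.28 ± 0.21 (limma interaction, adjusted p = 0.483) and did not pass. The control males include rat 1, and without rats 1 and 7 the difference was -0.16 ± 0.15.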

How the results depend on the processing

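The number of members called was 0 in each of the 11 comparisons and remained 0 in 166 of 170 counts under the alternatives tried, namely normexp background correction, quantile normalization, median scaling, the deposited table unscaled, other filters on dim probes, averaged probes, sex as a covariate, slide as a block, array weights, the methods' t-test, only the groups compared, other thresholds, each sex alone, and fits without rats 1 and 7 or without these and rats 26 and 31 (the last 2 chosen after seeing the data). The 4 other counts were 1 for 1000 ppm against control (RT1-DMa), 1 for 1500 against 1000 ppm (RT1-DMa) and 2 for females against males (Ciita and RT1-DMb) at an unadjusted p under 0.05 with no fold, and 1 for 1500 ppm against control in males alone (Ciita). With each rat left out in turn the count was 0 to 0 in every comparison. Of 21 exact tests 0 had p under 0.05, with and without rats 1 and 7. Because no member was called in the main setting of the 11 comparisons, no called value could reverse. Of 1190 member values 97 changed sign, as did 82 of 1848 with 1 rat left out, so the direction of small differences is not settled. The normexp correction put the median of all genes at 1000 ppm at -0.119, against 0.005, and gave 4, 5 and 3 of 7 members higher at the rising doses, against 1, 3 and 1 in the main setting, while the unscaled table put it at 0.109 and gave 6, 6 and 0. Ciita in males at 1500 ppm ran from -0.78 to -0.51 and was called in 32 of 36 settings, the exceptions being slide as a fixed block (-0.74 ± 0.48) and the 3 fits that left out rat 1. Many of the 36 left out a rat that is neither a control male nor a male at 1500 ppm. Such a fit cannot change the difference of -0.66, so the count of settings does not measure how stable the call is.

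Over all genes the counts called depended on the threshold. At an adjusted p under 0.05 they were 0, 3 and 1 at the rising doses, against 131, 348 and 260, and at an unadjusted p with no fold 920, 1910 and 1481. Between doses they ran from 0 to 697 for 1000 against 600 ppm (134 in the main setting), from 0 to 1781 for 1500 against 600 ppm (247) and from 0 to 1059 for 1500 against 1000 ppm (111). The sex differences at 1500 ppm were 1068 genes, 166 with slide as a block and 2621 with array weights, the females against males were 836 genes, 7997 at an unadjusted p with no fold and 448 with probes well above background on all 24 arrays, and the slope gave 3 genes and 42 with sex as a covariate. No paired analysis was possible because no rat number is shared between groups, and slide as a fixed block could not be fitted for females against males. The array cannot follow RT1-Ba, whose probe stayed in the background.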

Other observations

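Class I genes of the same gene complex also split the rats, though not the same ones. The probe of RT1-CE10, a class I heavy chain, had levels of -4.73 in control rat 2 and -5.32 in 1000 ppm rat 11, against -1.09 to 0.26 in the other 22 rats, and 1 probe of RT1-CE5 had -4.13 and -3.90 in these rats against 0.30 to 1.70. These genes were chosen after their values were seen. Near-identical class I genes share probe sequence, so which gene each probe reads is uncertain.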
